A study of Homo sapiens with 12 samples.

Results

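The mitochondrial ribosome is assembled from RNAs encoded by mitochondrial DNA and from proteins encoded in the nucleus, most of which carry the symbols MRPL (large subunit) and MRPS (small subunit). The genes described here are all those whose symbol in the authors' deposited tables is MRPL or MRPS followed by a number and at most a letter from A to D. This rule matched 86 of the 63677 gene identifiers in the count table, which carried 76 distinct symbols. After a filter on low counts, 75 identifiers with 75 different symbols were left, among 16287 genes tested in all.

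RNA was sequenced from HPB-ALL cells, an established human line of T-cell acute lymphoblastic leukaemia (T-ALL), in 12 libraries of 6 groups with 2 libraries each (n = 2 throughout). The cells carried lentiviral, doxycycline-inducible TAL1 (line T5, here the TAL1 line), LMO1 (line L4, the LMO1 line) or both (line C25, the TAL1/LMO1 line), had been selected with a drug, and received doxycycline or the vehicle DMSO. TAL1 binds DNA through a basic helix-loop-helix domain and LMO1 links transcription factors through LIM domains; both act as oncogenes in T-ALL. All groups grew in tetracycline-free serum with Pen/Strep; the dose and duration of doxycycline, and whether a line was 1 clone, are not stated in the labels. Doxycycline belongs to the tetracyclines, antibiotics that bind bacterial ribosomes and can also inhibit the ribosomes of mitochondria. Each of the 12 libraries came from a line with a transgene, so effects of the drug and of the transgenes cannot be told apart.

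Mitochondrial ribosomes translate the few messages of mitochondrial DNA, which encode core subunits of the respiratory chain and of ATP synthase. Their proteins are made in the cytosol and imported, so supplying the subunits depends on a large set of nuclear genes. Some of these proteins have counterparts in bacterial ribosomes and others are found only in mitochondria.

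Library totals lay between 14865073 and 15917713 counts, and a count of 0 allows at most 0.198 CPM (3 counts per library; CPM are counts relative to the TMM-scaled library size), a limit that covers counting error only. TAL1 and LMO1 followed the labels. TAL1 was at 4.06 and 3.88 CPM with DMSO and 35.5 and 42.9 CPM with doxycycline in the TAL1 line, and LMO1 at 3.93 and 1.76 against 239.5 and 212 CPM in the LMO1 line. In the TAL1/LMO1 line, TAL1 went from 3.08 and 7.34 to 932 and 868 CPM and LMO1 from 0.449 and 6.89 to 1501 and 1576 CPM, so both transgenes reached higher levels than in the single lines. Construct reads and endogenous reads could not be separated. The 8 T-cell markers summed to between 1958 and 2367 CPM per library, but single markers differed. In the TAL1/LMO1 line all 8 changed with doxycycline: CD28 (log2 1.37), CD5 (0.88) and CD7 (0.47) rose, and CD2 (-2.49), CD3E (-2.10), CD3G (-0.86), CD3D (-0.23) and LCK (-0.17) fell, in the libraries in which most mitochondrial ribosomal protein genes fell; their part in that result was not tested. With DMSO, CD7 was at 2.62 and 2.93 CPM in the LMO1 line, against 307.5 and 307.7 CPM in the TAL1 line and 201 and 204 CPM in the TAL1/LMO1 line. Markers of B cells, myeloid cells and epithelium summed to between 1.80 and 6.60 CPM, with MS4A1, HBB and EPCAM at 0 counts in all libraries. All 13 mitochondrially encoded mRNAs had 0 counts in all libraries, so the messages that these ribosomes translate were not measurable here.

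Promoters are shown for 4 genes. MRPL12 and MRPL3 had the largest falls in the TAL1/LMO1 line, and MRPS6 and MRPL40 had the largest and the smallest of the 3 rises there. The call of MRPL40 was lost under several alternatives given below. Each line gives the 100 bases directly before the annotated start, 5′ to 3′ on the gene's strand, from RefSeq on GRCh38.p14. The windows are chr17:81703267-81703366 (plus strand, MRPL12), chr3:131502972-131503071 (minus strand, MRPL3), chr21:34073478-34073577 (plus strand, MRPS6) and chr22:19432445-19432544 (plus strand, MRPL40). Capitals mark CCGGAAG, a core of the motif bound by ETS transcription factors.
MRPL12: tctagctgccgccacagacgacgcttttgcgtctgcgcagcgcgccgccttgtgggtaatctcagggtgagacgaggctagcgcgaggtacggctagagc
MRPL3: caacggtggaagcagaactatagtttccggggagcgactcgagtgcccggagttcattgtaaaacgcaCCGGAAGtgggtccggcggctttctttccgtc
MRPS6: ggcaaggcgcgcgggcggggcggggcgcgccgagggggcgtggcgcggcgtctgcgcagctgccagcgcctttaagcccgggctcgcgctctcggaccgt
MRPL40: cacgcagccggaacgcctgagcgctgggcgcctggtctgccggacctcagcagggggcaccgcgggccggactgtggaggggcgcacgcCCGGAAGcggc

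In these windows, MRPL3 and MRPL40 each held 1 CCGGAAG, in a gene that fell and in one that rose, and MRPL12 and MRPS6 held none. Promoters from 250 bases before to 50 bases after the start were at hand for 67 of the 76 symbols and were searched on both strands for 4 motifs, none of which contains another. CCGGAAG was present in 28 of the 67, or 41.8%, against 10.7% of all 27305 promoters and 19.2% of the 9754 promoters of tested genes. CACGTG, an E-box bound by MYC among other factors, was present in 6 (8.96%), above the 7.43% of all promoters and below the 10.1% of those of tested genes. CAGATG, an E-box of the kind bound by TAL1 dimers, was in the MRPL9 promoter alone (1.49%), against 14.8% of all promoters and 9.62% of those of tested genes. The motif of the factor NRF1 (GCGCA and GCGC with any base between them) was present in 7 (10.4%), above the 6.28% of all promoters and below the 11.8% of those of tested genes. These are matches of letters and show no binding.

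With DMSO, the 75 genes differed widely in level. Levels per kilobase of exon (GENCODE 29 lengths, on another build than the counts, present for 73 of the 75) ran from 0.356 to 77.4 CPM per kb as means of the DMSO libraries, with a median of 16.9. The highest were MRPL37 (77.4 CPM per kb), MRPL3 (65.4), MRPS2 (55.6) and MRPL51 (51.2). The lowest were MRPS24 (0.356), MRPL38 (1.68), MRPS17 (1.72) and MRPL46 (2.41).

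Of the 11 identifiers below the filter, 8 had no count in any library: 6 further identifiers of MRPS18B, 1 of MRPS36 and 1 of MRPL45. Both identifiers of MRPL30 had 6 and 5 counts over all 12 libraries, so that MRPL30 was not tested at all, and a second identifier of MRPS17 had 11. Several tested genes share exons with another annotated gene on their strand, and how the authors' counting treated such reads is not stated. In GENCODE 29, 68.2% of the exonic bases of MRPL12 (ENSG00000262814) lie in exons of a gene that the authors' table names SLC25A10 (ENSG00000262660) and that had 0 counts. The shares were 45.2% for MRPL53, 37.5% for MRPL38, 35.8% for MRPS28, 27% for MRPS17, 23.2% for MRPS24 and 21.1% for MRPL33. The values of these genes are uncertain for that reason. So are the low counts of identifiers below the filter, with shares of 19.5% (ENSG00000185414) and 83.7% (ENSG00000273155) for MRPL30. For the second identifier of MRPS17 the share was 88.6%. Smaller shares, at most 11.3% (MRPL46), were found in other tested genes, among them 10.5% for MRPL20 and 9.6% for MRPS6. Exons on the opposite strand overlapped too, as for 47.0% of the bases of MRPS18A, 40.2% of MRPS18C and 31.3% of MRPL51. The strand setting of the counting is not stated, so these values may be uncertain as well. Among 67 pseudogene identifiers, 2 passed the filter: MRPS31P5 rose in the TAL1/LMO1 line (log2 0.86), where MRPS31 fell (-0.24), and MRPL45P2 was not called (-0.36).

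Added up over all 86 identifiers, the genes of the set were lower with doxycycline in every line, most of all in the TAL1/LMO1 line. Their summed level was 4193 and 4201 CPM with DMSO against 3880 and 3878 with doxycycline in the TAL1 line. In the LMO1 line it was 3900 and 3950 against 3703 and 3710. In the TAL1/LMO1 line it was 3459 and 3452 against 2266 and 2294. Libraries of both treatments did not overlap in any line, and the TAL1/LMO1 line was lowest under either treatment. CPM are shares of a library, so these sums are relative to the other genes, and in bulk RNA fewer cells of a type and less RNA per cell cannot be told apart.

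**Figure D1:**
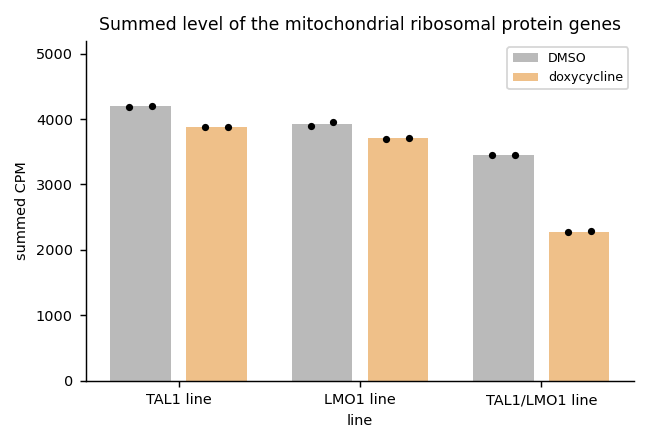
Summed level (CPM) of the mitochondrial ribosomal protein genes in each library, by line and treatment; points are libraries and bars are means of 2 libraries. The TAL1/LMO1 doxycycline libraries stand at 2266 and 2294 CPM, below all others.

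The comparison of doxycycline with DMSO in the TAL1 line asks what induced TAL1 goes with. There, 4 of the 75 genes fell and none rose: MRPL12, MRPL3, MRPL23 and MRPL4, all proteins of the large subunit with bacterial counterparts. Genes called were those with an adjusted p under 0.05 in edgeR's quasi-likelihood test, Benjamini-Hochberg adjusted over all genes tested. By that rule, 1.84% of all genes tested were called in this line, 0.853% lower and 0.982% higher. The other 71 were not called. In the authors' deposited table for this line, 78 of the 86 identifiers have an adjusted p and none is called. At an unadjusted p under 0.05 in edgeR, 26 of the 75 were lower and none higher. Of all 16287 genes tested, 1981 reached that limit in either direction. DESeq2 called none of the 75 higher. Over all 75, the median log2 change was -0.11 against 0.00 for all genes (-3e-04 before rounding), and 67 had a negative value. In 48 of the 75, both doxycycline libraries lay below both DMSO libraries, against 21.8% of all genes, and in 1 they lay above, against 20.1%.

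MRPL12 encodes a large-subunit protein of the stalk that recruits translation factors, and it has also been described as binding the mitochondrial RNA polymerase. In the TAL1 line it was at 32.9 and 31.5 CPM with DMSO and at 24.3 and 21.9 CPM with doxycycline. Libraries of both treatments did not overlap, and the log2 change was -0.48 (SE 0.09, adjusted p = 0.00014 in edgeR). Without any single library of this comparison it lay between -0.55 and -0.41, and the highest adjusted p was 0.03. DESeq2 gave MRPL12 no adjusted p here, and in the authors' deposited table its adjusted p is 0.085 at a log2 change of -0.48.

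The other 3 calls of the TAL1 line were smaller. MRPL3, the counterpart of bacterial L3, was at 212 and 210 CPM with DMSO and 185.5 in both doxycycline libraries (log2 -0.19, SE 0.05, edgeR adjusted p = 0.023). MRPL23 had a log2 change of -0.22 (adjusted p = 0.034) and MRPL4 of -0.20 (adjusted p = 0.046). The treatments did not overlap for any of the 3, but each lost its call when any single library was left out, with adjusted p up to 0.24 for MRPL3, 0.45 for MRPL23 and 0.36 for MRPL4. By total counts in place of TMM, these 3 were not called either (adjusted p = 0.079, 0.092 and 0.12).

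In the LMO1 line, 3 of the 75 genes fell and none rose: MRPS2, MRPL9 and MRPL11. Of all genes tested, 2.14% were called in this line, 0.964% lower and 1.18% higher. At an unadjusted p under 0.05 in edgeR, 18 of the 75 were lower and 1 higher. Of all 16287 genes tested, 1966 reached that limit in either direction. DESeq2 called none of the 75 higher. The median log2 change was -0.07 against 0.00 for all genes (0.0029 before rounding), with 56 of 75 negative. Both doxycycline libraries lay below both DMSO libraries in 37 genes, against 20.3% of all genes, and above them in 6, against 20.8%.

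MRPS2, the mitochondrial counterpart of bacterial S2 in the small subunit, was at 201 and 196 CPM with DMSO and 163.5 and 162 CPM with doxycycline in the LMO1 line. The groups did not overlap (log2 -0.29, SE 0.05, edgeR adjusted p = 2e-04), and the gene was called without any single library (highest adjusted p 0.018). MRPL9 (-0.25, adjusted p = 0.024) and MRPL11 (-0.22, adjusted p = 0.031), both of the large subunit, lost their calls without any single library, with adjusted p up to 0.28 and 0.26. MRPS2 is also the only one of the 75 called in the authors' deposited table for this line, where 13 of the 86 identifiers have an adjusted p.

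No gene was called lower in both single lines by edgeR. MRPL12 in the LMO1 line was at 24.2 and 24.3 CPM with DMSO and 24.1 and 25.7 CPM with doxycycline (log2 0.04, SE 0.09, adjusted p = 0.93). A test of the difference between both responses called MRPL12 alone among the 75 (-0.52, SE 0.12, edgeR adjusted p = 0.012); 0.939% of all genes tested were called in that comparison, 0.553% lower and 0.387% higher. That call was lost with DESeq2 (adjusted p = 0.15) and without TAL1 DMSO replicate 1 (0.10), TAL1 doxycycline replicate 2 (0.14) or LMO1 doxycycline replicate 2 (0.15).

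In the TAL1/LMO1 line, 64 of the 75 genes fell, 3 rose and 8 were not called. Doxycycline changed much of the transcriptome in this line: 60.2% of all genes tested were called, 31.7% lower and 28.5% higher. The median log2 change of the 75 was -0.64, with quartiles of -0.81 and -0.35, against a median of -0.01 for all genes. The extremes were -1.43 for MRPL12 and 0.84 for MRPS6. Of the 75, 11 were called and fell by more than 1 on the log2 scale, against 1024 of all 16287 genes tested. Both doxycycline libraries lay below both DMSO libraries in 67 genes, against 40.1% of all genes, and above them in 4, against 38.1%. In the authors' deposited table for this line, 57 of the 75 identifiers with an adjusted p are called negative and 2 positive.

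**Figure D2:**
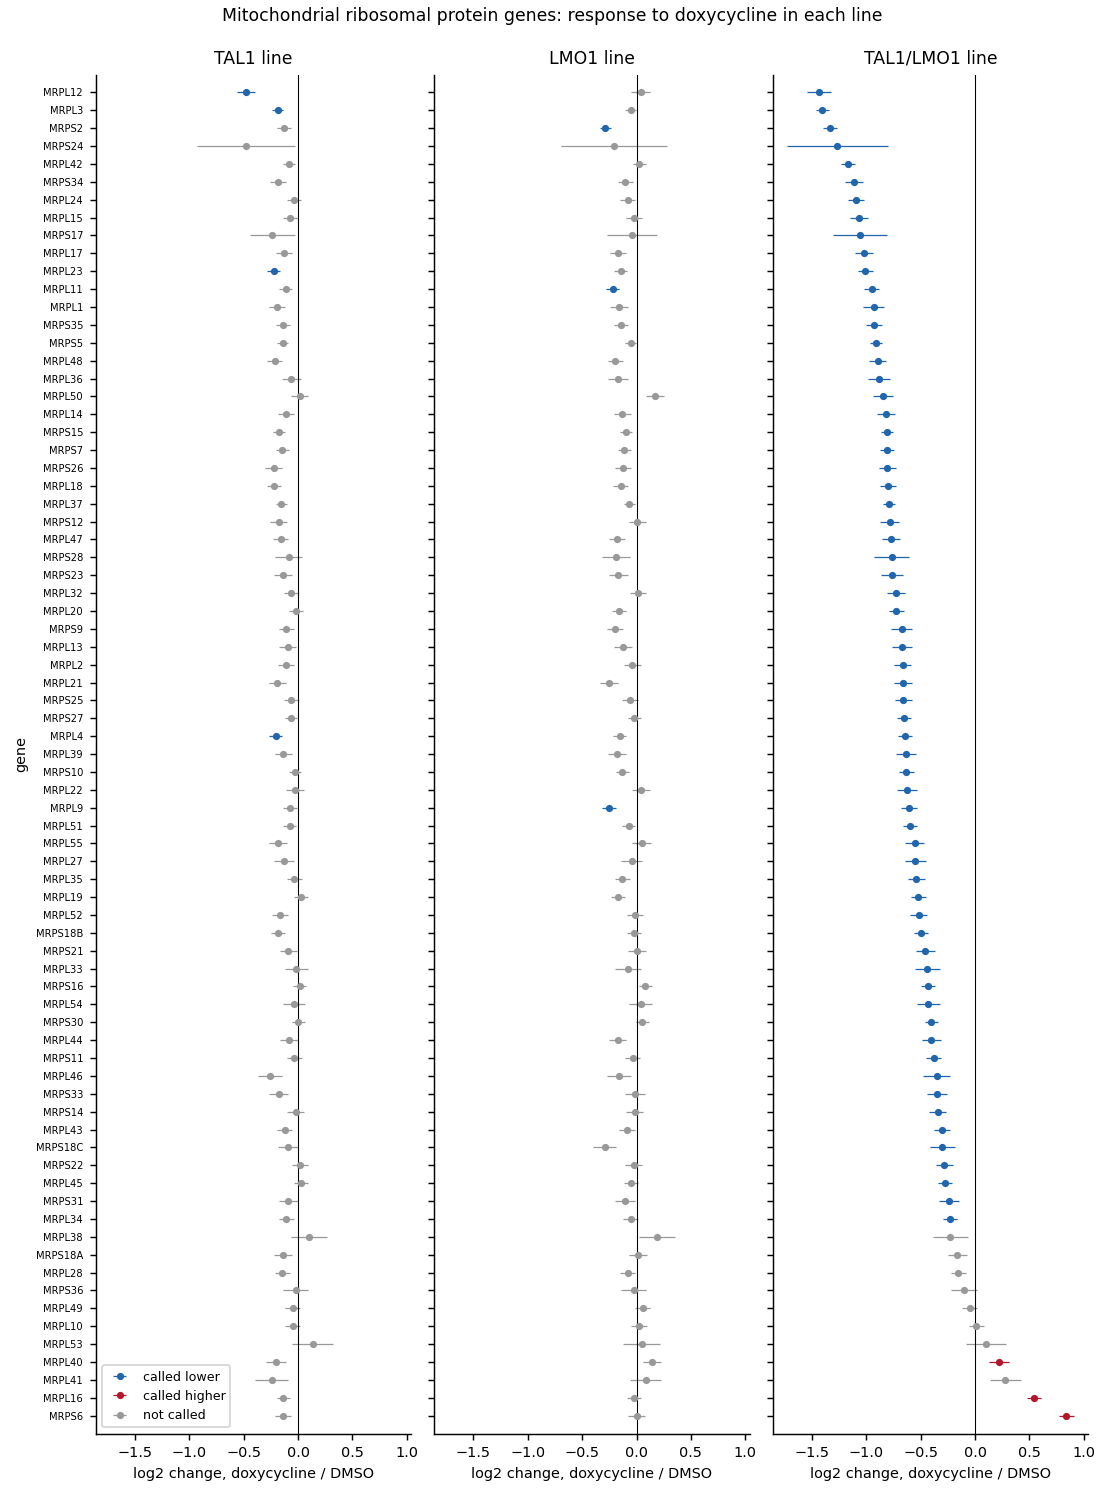
Log2 change with doxycycline against DMSO for the 75 genes in each line, ordered by the TAL1/LMO1 line; points are edgeR estimates, bars 1 SE, and colours show calls at an adjusted p under 0.05. In the TAL1/LMO1 line 64 genes are called lower, against 4 in the TAL1 line and 3 in the LMO1 line.

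MRPL12 had the largest fall. Its level went from 20.97 and 23.1 CPM with DMSO to 8.57 and 7.74 CPM with doxycycline (log2 -1.43, SE 0.11, edgeR adjusted p = 1.6e-19), a ratio of 0.370. MRPL3 went from 138 and 135 CPM to 52.4 and 50.8 CPM (log2 -1.40, SE 0.06, adjusted p = 5.3e-35), and MRPS2 from 119 and 114 CPM to 41.6 and 50.8 CPM (log2 -1.33, SE 0.06, adjusted p = 6.6e-31). For each of these 3, the doxycycline libraries of the TAL1/LMO1 line were the lowest of all 12 libraries.

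MRPL42, found only in mitochondrial ribosomes, was at 83.7 and 80.2 CPM with DMSO and 35.4 and 37.6 CPM with doxycycline (log2 -1.17, SE 0.07). MRPS34, also mitochondria-specific and in the small subunit, was at 39.6 and 41.3 against 20.2 and 17.1 CPM (log2 -1.12, SE 0.08). Treatments did not overlap for either gene. The log2 changes of the large-subunit genes MRPL24, MRPL15, MRPL17, MRPL23 and MRPL11 were -1.09, -1.06, -1.02, -1.01 and -0.95. Their values kept the call without any single library of the TAL1/LMO1 line (highest edgeR adjusted p 1.1e-13, for MRPL17).

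MRPS24 and MRPS17, 2 small-subunit genes at low levels, also belong to the 12 largest falls. MRPS24 was at 1.28 and 0.966 CPM with DMSO and 0.621 and 0.307 CPM with doxycycline (log2 -1.26, SE 0.46, adjusted p = 0.015). It was not called with DESeq2 (adjusted p = 0.092) nor without TAL1/LMO1 DMSO replicate 1 (0.13) or doxycycline replicate 2 (0.17). MRPS17 was at 3.78 and 3.41 against 1.55 and 1.90 CPM (log2 -1.05, SE 0.25, adjusted p = 0.00017), and was called without any single library.

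The genes that rose in the TAL1/LMO1 line were MRPS6, MRPL16 and MRPL40. MRPS6, the mitochondrial counterpart of bacterial S6, was at 37.9 and 42.4 CPM with DMSO and at 72.8 and 70.8 CPM with doxycycline (log2 0.84, SE 0.07, edgeR adjusted p = 2.2e-18). MRPL16, a conserved large-subunit protein, was at 62.1 and 60.6 CPM with DMSO and at 89.1 and 89.4 CPM with doxycycline (log2 0.54, SE 0.06, adjusted p = 1.5e-12). In both, these 2 doxycycline libraries were the highest of all 12, while in the single lines neither was called (MRPS6 -0.14 and 0.00; MRPL16 -0.14 and -0.02; MRPS6 in the LMO1 line is 3e-04 before rounding).

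The rise of MRPL40, a mitochondria-specific large-subunit protein, was smaller. It was at 20.5 and 23.7 CPM with DMSO and 24.97 and 26.6 CPM with doxycycline (log2 0.22, SE 0.09, adjusted p = 0.033), which left no overlap. Both values were below those of the LMO1 line with DMSO, at 34.5 and 34.6 CPM. The call was lost with DESeq2 (adjusted p = 0.094), with no filter on low counts (0.12), and without TAL1/LMO1 DMSO replicate 1 (0.43) or doxycycline replicate 2 (0.23).

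**Figure D3:**
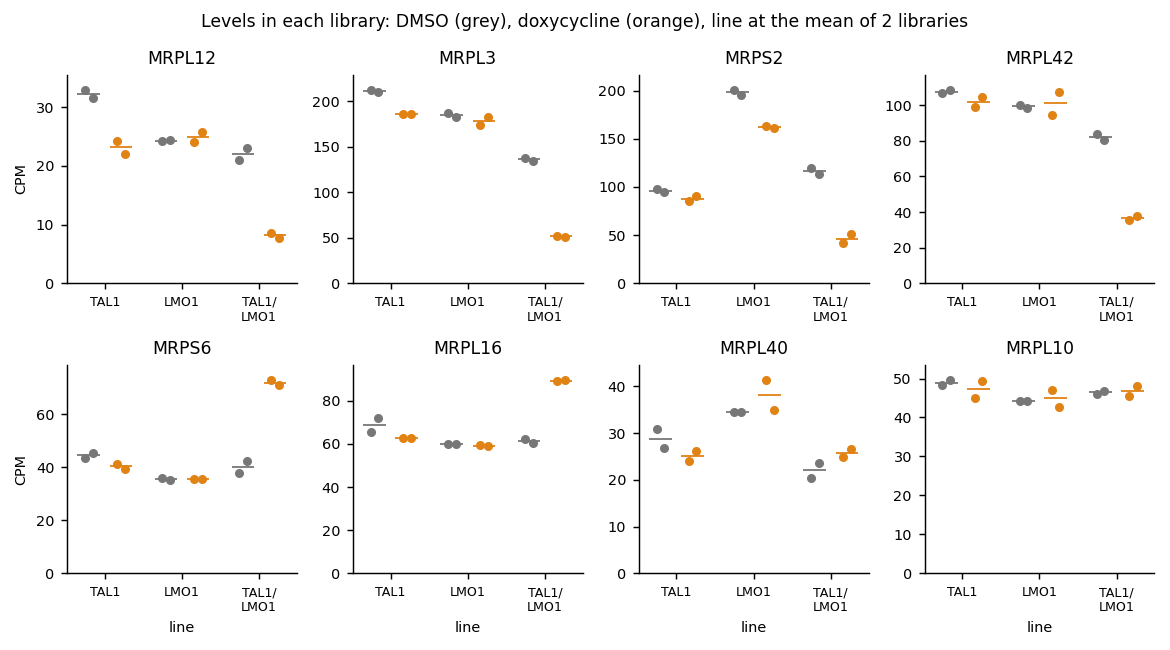
Levels (CPM, axes from 0) of 8 genes in the 12 libraries, by line; grey points are DMSO libraries, orange points doxycycline libraries and short lines the means of 2. MRPL12, MRPL3, MRPS2 and MRPL42 drop in the TAL1/LMO1 line, MRPS6 and MRPL16 stand higher there, and MRPL10 lies between 42.8 and 49.6 CPM in all libraries.

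The 8 genes that were not called in the TAL1/LMO1 line were MRPL10, MRPL28, MRPL38, MRPL41, MRPL49, MRPL53, MRPS18A and MRPS36. MRPL10, the stalk protein that binds MRPL12, was at 46.1 and 46.8 CPM with DMSO and 45.5 and 48.2 CPM with doxycycline (log2 0.01, SE 0.07, adjusted p = 0.89). Its partner MRPL12 had the largest fall of the set in the same libraries. MRPL49 (-0.05, SE 0.07), MRPS36 (-0.10, SE 0.12), MRPL28 (-0.15, SE 0.07) and MRPS18A (-0.16, SE 0.09) had small changes with small errors. MRPS36 is now regarded as a component of the 2-oxoglutarate dehydrogenase complex and not of the ribosome, and it was counted in neither subunit. For MRPL53 (0.10, SE 0.19), MRPL38 (-0.23, SE 0.16) and MRPL41 (0.28, SE 0.15) the errors were wider. MRPL41 was called higher by total counts (log2 0.38, adjusted p = 0.022) and without doxycycline replicate 2 (0.47, adjusted p = 0.012), and stood at 0.03 without doxycycline replicate 1. MRPL28 was called lower with no filter on low counts (-0.19, adjusted p = 0.039).

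Both subunits were lower in the TAL1/LMO1 line, where 31.7% of all genes tested were called lower and 28.5% higher. Of 26 small-subunit genes 25 fell and 1 rose (MRPS6), with a median log2 change of -0.67. Of 48 large-subunit genes 39 fell, 2 rose and 7 were not called, with a median of -0.62. Among large-subunit proteins with bacterial counterparts, 24 of 27 fell (median -0.67), and among the mitochondria-specific ones 15 of 21 fell (median -0.40). In the small subunit, 15 of 16 conserved genes (median -0.72) and all 10 mitochondria-specific genes (median -0.66) fell. Differences between these classes were not tested.

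The 3 MRPS18 paralogs are related proteins that occupy different places in the ribosome. MRPS18B was at 65.3 and 66.0 CPM with DMSO and 46.5 and 46.6 CPM with doxycycline in the TAL1/LMO1 line (log2 -0.50, SE 0.06, adjusted p = 2.7e-10). MRPS18C had a log2 change of -0.30 (SE 0.11, adjusted p = 0.018), a call that was lost by total counts (adjusted p = 0.12), with DESeq2 (0.090) and without TAL1/LMO1 DMSO replicate 1 (0.13) or doxycycline replicate 2 (0.28). MRPS18A was not called, and no paralog was called in the single lines. The call of MRPL46, also among the least abundant per kilobase (-0.35, SE 0.12, adjusted p = 0.010), was lost by total counts (0.066), with DESeq2 (0.068) and without TAL1/LMO1 DMSO replicate 1 (0.084) or doxycycline replicate 1 (0.15). The abundant MRPL37 (-0.79, SE 0.05) and MRPL51 (-0.60, SE 0.06) fell under each of those settings.

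The 27 tested genes with a CCGGAAG in the promoter had 21 falls, 2 rises and a median of -0.44 in the TAL1/LMO1 line. The 39 without it had 36 falls, 1 rise and a median of -0.68. The 6 with CACGTG had 5 falls and a median of -0.46, against 52 falls, 3 rises and -0.63 in the 60 without it. The 6 tested with the NRF1 motif had 6 falls and a median of -0.75, against 51 falls, 3 rises and -0.62 in the 60 without it. Over all genes tested, 31.7% fell and 28.5% rose. Differences by motif were not tested. MRPL9, with the only CAGATG, had a log2 change of -0.61 in this line.

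Whether the TAL1/LMO1 line responded otherwise than the single lines was tested as a difference of responses. Against the TAL1 line, 57 of the 75 genes responded lower and 4 higher (median difference -0.55), with 43.8% of all genes tested called, 25.4% lower and 18.4% higher. Against the LMO1 line, 56 responded lower and 2 higher (median -0.51), with 45.4% of all genes called, 26.4% lower and 19.1% higher. The TAL1/LMO1 response was also compared, in log2 units, with the TAL1 and LMO1 responses added together: 45 genes were lower and 2 higher than that sum (median -0.45), with 34.7% of all genes called, 21.4% lower and 13.3% higher. These 3 comparisons share the TAL1/LMO1 libraries. They do not compare equal transgene levels. With doxycycline, mean TAL1 was at 899.6 CPM in the TAL1/LMO1 line and 39.2 CPM in the TAL1 line. Mean LMO1 was at 1539 CPM in the TAL1/LMO1 line and 225.8 CPM in the LMO1 line. The part of these levels in the differences was not tested. The genes with the smallest p were MRPL3, MRPS2 and MRPL42 among the lower and MRPS6 and MRPL16 among the higher in all 3. The 4 higher against the TAL1 line also included MRPL40 and MRPL41, and only 2 were called without TAL1 DMSO replicate 1, TAL1 doxycycline replicate 1 or TAL1/LMO1 DMSO replicate 1.

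All 4 genes called in the TAL1 line and all 3 called in the LMO1 line were among the 64 that fell in the TAL1/LMO1 line, of which they made up a small part. Because 64 of the 75 fell there, most picks of a few genes would overlap likewise, and the overlap was not tested. Across the 75 genes, the log2 changes of the TAL1 and TAL1/LMO1 lines had a Pearson r of 0.341 (0.184 over all genes tested), those of the LMO1 and TAL1/LMO1 lines 0.384 (0.097), and those of the TAL1 and LMO1 lines 0.247 (0.008). These values describe genes, which are not independent replicates. They come from separate libraries, but genes of one level share their precision.

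The DMSO libraries show how far the lines differed before induction. With DMSO, 25 of the 75 genes were higher and 3 lower in the TAL1 line than in the LMO1 line (median log2 difference 0.15), with 36.4% of all genes tested called, 18.5% higher and 17.8% lower. The TAL1/LMO1 line had 51 genes lower and 2 higher than the TAL1 line (median -0.25), with 45.4% of all genes called, 23% lower and 22.4% higher. Against the LMO1 line, 31 were lower and 1 higher (median -0.14), with 41% of all genes called, 20.6% lower and 20.4% higher. The last counts were 20 lower and 5 higher by total counts, and 20 lower and none higher without TAL1/LMO1 DMSO replicate 2. The lower level in the TAL1/LMO1 line was thus present with DMSO, in libraries where TAL1 and LMO1 were at the low levels given above. These DMSO libraries are also the controls of the responses.

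MRPS2 differed most between the single lines with DMSO, at 97.4 and 94.5 CPM in the TAL1 line and 201 and 196 CPM in the LMO1 line, with the TAL1/LMO1 line between them at 119 and 114 CPM. Its log2 difference between the TAL1 and LMO1 lines was -1.05 (SE 0.06, edgeR adjusted p = 3.1e-27). MRPS9, another conserved small-subunit gene, was at 55.8 and 52.2 CPM in the TAL1 line, 51.3 and 47.6 CPM in the LMO1 line and 25.01 and 24.5 CPM in the TAL1/LMO1 line. It was lower in the last than in the TAL1 line (log2 -1.12, adjusted p = 1.4e-21) and the LMO1 line (log2 -0.9965, adjusted p = 1.1e-18), and fell further with doxycycline, to 15.4 and 15.6 CPM. MRPL1 was higher in the TAL1 than in the LMO1 line (log2 0.45) and lower in the TAL1/LMO1 than in the TAL1 line (-0.91). MRPL3 was lower in the TAL1/LMO1 line than in the TAL1 line (-0.63) and the LMO1 line (-0.44).

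Few genes of the set were higher in the TAL1/LMO1 line with DMSO. MRPL34 was higher than in the TAL1 line (log2 0.31, adjusted p = 8.7e-05). Its call against the LMO1 line (0.16, adjusted p = 0.047) was lost without any single library (adjusted p up to 0.20). Between the single lines, MRPS18B (0.39) and MRPL37 (0.28) were higher in the TAL1 line. MRPL40 (-0.26, adjusted p = 0.013) and MRPL53 (-0.44, adjusted p = 0.049) were lower there, with adjusted p up to 0.28 and 0.52 when a library was left out.

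Other genes of the pathway, from lists by function, were mostly lower in the TAL1/LMO1 line too. Of all genes tested, 31.7% were called lower there and 28.5% higher. All 7 mitoribosomal proteins that carry other symbols fell (median -0.40), among them GADD45GIP1 (-0.84), which also fell in the TAL1 line (-0.26, adjusted p = 0.018), ICT1 (-0.72), a ribosome-bound peptidyl-tRNA hydrolase, AURKAIP1 (-0.50) and PTCD3 (-0.35). Of 17 factors of mitochondrial translation and mRNA handling, 15 fell and none rose (median -0.31), with LRPPRC (-1.09) and SLIRP (-1.23), which together stabilise mitochondrial mRNAs, the elongation factor TUFM (-0.89) and GUF1 (-0.52). Of 24 assembly and rRNA factors, 19 fell and 1 rose (median -0.43), with the rRNA methyltransferase MRM1 (-1.32), RBFA (-1.02), MALSU1 (-0.83) and FASTKD2 (-0.76). Of 17 mitochondrial tRNA synthetases, 13 fell and none rose (median -0.61), with MARS2 (-1.74), EARS2 (-1.43), VARS2 (-0.74) and CARS2 (-0.63).

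Of 12 genes for transcription and replication of mitochondrial DNA, 7 fell and 1 rose (median -0.28). For this list and the next, the share of all genes tested that were called in this line was 60.2%, with 31.7% lower and 28.5% higher. C10orf2, the helicase Twinkle, fell by 1.90 on the log2 scale, TFAM, which packages mitochondrial DNA and starts its transcription, by 1.16, TOP1MT by 0.92 and SSBP1 by 0.83. SSBP1, the single-strand binding protein, also fell in the LMO1 line (-0.22, adjusted p = 0.021). Among 11 known regulators of mitochondrial gene programmes, 6 fell and 1 rose (median -0.35). MYC fell from 540 and 577 CPM to 48.9 and 50.7 CPM (log2 -3.49), the coactivators PPRC1 and PPARGC1B fell (-1.63 and -1.03), and MAX, the partner of MYC, rose (0.62). In the TAL1 and LMO1 lines, no gene of these 6 lists was called other than GADD45GIP1 and SSBP1. Of all genes tested, 1.84% and 2.14% were called in those lines.

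**Figure D4:**
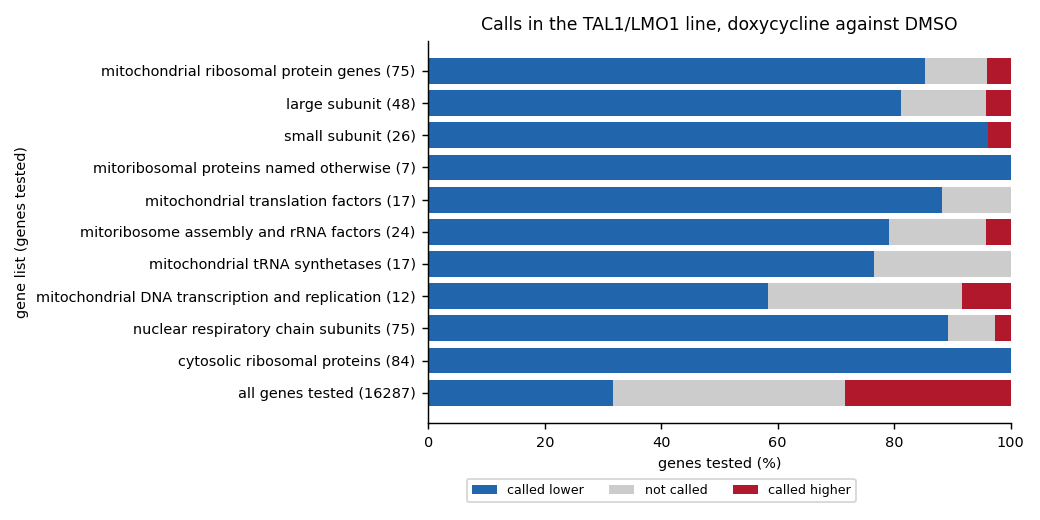
Share of tested genes (%) called lower, not called and called higher in the TAL1/LMO1 line, doxycycline against DMSO, for the mitochondrial ribosomal protein genes, their subunits, other lists and all genes tested (numbers of genes in brackets). Of all genes tested 31.7% are called lower, against 64 of the 75 mitochondrial ribosomal protein genes.

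Cytosolic ribosomal protein genes and most nuclear-encoded respiratory chain subunits were also lower with doxycycline in the TAL1/LMO1 line. All 84 tested cytosolic ribosomal protein genes fell there (median -0.73), and 67 of 75 respiratory subunits fell and 2 rose (median -0.55), where 31.7% of all genes tested fell. In the TAL1 line, 26 of the 84 and 6 of the 75 fell, where 0.853% of all genes tested fell. In the LMO1 line, 6 of the 84 fell and 1 of the 75, a number near the 0.964% of all genes tested. The summed cytosolic ribosomal proteins stood at 49920 and 49390 CPM with DMSO and 31320 and 31230 CPM with doxycycline in the TAL1/LMO1 line. Whether the mitochondrial set differs from these lists was not tested.

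**Figure D5:**
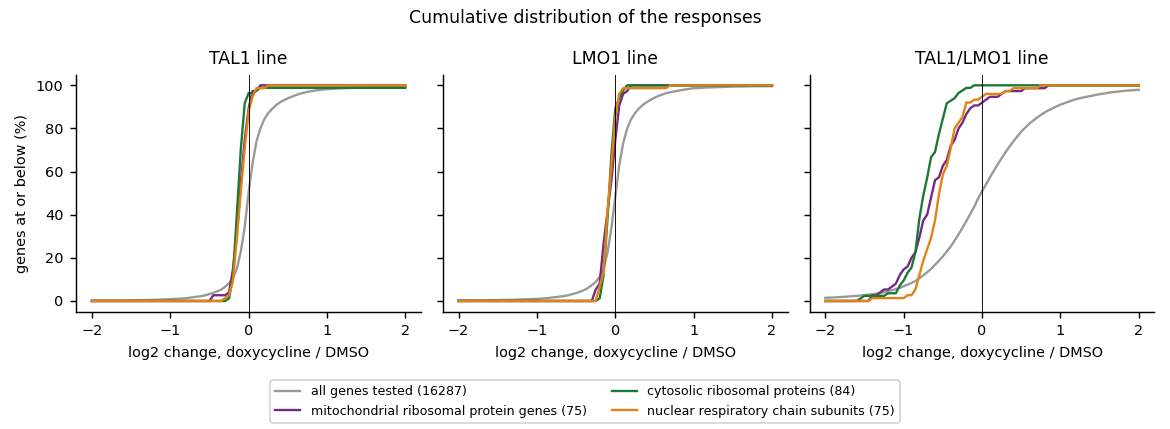
Cumulative share of genes (%) at or below each log2 change with doxycycline, for the 75 mitochondrial ribosomal protein genes, 84 cytosolic ribosomal proteins, 75 nuclear respiratory chain subunits and all 16287 genes tested, in each line. In the TAL1/LMO1 line the 3 lists lie left of all genes, with medians of -0.64, -0.73 and -0.55 against -0.01.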

How the data were processed

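RNA was sequenced from 12 libraries, strand-specific with paired-end reads of 100 bases, per the labels' protocols. The build hg19, STAR 2.5.2a, featureCounts and DESeq2 1.12.4 are listed in the submitters' processing notes. The authors deposited raw counts per gene; whether they count reads or read pairs, the strand setting and the annotation are not stated there. The authors also deposited a DESeq2 table per line, with a mean normalised count (a signal), a log2 fold change, the Wald statistic as a score, and p-values, per the file headers; the direction of its ratio, doxycycline over DMSO, was read from the induced transgenes.

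Counts were filtered with filterByExpr over the 6 groups, which left 16287 genes (the others held at most 0.177% of a library), and scaled by TMM. A quasi-likelihood model (edgeR 4.0.16, R 4.3.3, robust, prior count 0.125) had 1 mean per group and 6 residual degrees of freedom. Its median prior degrees of freedom were 66, so that p-values rest largely on the spread of other genes. F tests were two-sided, with Benjamini-Hochberg adjustment over all genes tested. The SE of a log2 change was taken from its F value, or from counting error where that was larger. Separate cultures are not stated for the replicates, so p-values cover only the spread among these libraries, which may be technical. No libraries were identical. The procedure was tested on simulated data.

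The members and lists were chosen with earlier results of these data known. Genes were named by rule: all called members in the single lines; the 12 largest falls, the rises and the 8 uncalled genes of the TAL1/LMO1 line; up to 3 per direction in other comparisons; the 4 highest and 4 lowest per kilobase; the MRPS18 paralogs; and up to 4 per list by smallest p. MRPS31, the pseudogenes and genes named for shared exons or motifs fall outside it and were chosen after their values were seen. Alternatives were total counts, DESeq2 size factors, DESeq2 1.42.0, no filter on low counts, a replicate block and leaving out each replicate. A further one, chosen after seeing the data, left out the members with the largest same-strand exon shares. Levels per kilobase used merged exons of GENCODE 29, matched by identifier; promoters came from RefSeq on GRCh38.p14, matched by symbol.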

Additional observations from a re-analysis of the deposited data

Results flagged for a closer look

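The responses to doxycycline differed between lines in many of the 75 genes, by a test of the difference itself (edgeR's quasi-likelihood test, Benjamini-Hochberg adjusted): 57 were lower and 4 higher in the TAL1/LMO1 line against the TAL1 line. Of all genes tested, 43.8% were called in that comparison, 25.4% lower and 18.4% higher. Values are given here for the genes with the smallest p, at most 3 per direction and comparison. The response of the TAL1/LMO1 line exceeded that of the TAL1 line by 0.98 on the log2 scale for MRPS6, 0.68 for MRPL16 and 0.42 for MRPL40 (adjusted p = 0.0049), and differed by -1.22 for MRPL3, -1.20 for MRPS2 and -1.09 for MRPL42. Against the LMO1 line, the differences were 0.84 for MRPS6, 0.57 for MRPL16, -1.35 for MRPL3, -1.19 for MRPL42 and -1.05 for MRPS2. Against the sum of both single responses they were 0.98 for MRPS6, 0.70 for MRPL16, -1.16 for MRPL3, -1.11 for MRPL42 and -0.92 for MRPS2. These comparisons share libraries, and the transgenes reached higher levels in the TAL1/LMO1 line than in the single lines.

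Between the single lines, the response of MRPL12 in the TAL1 line differed from that in the LMO1 line by -0.52 (adjusted p = 0.012). The adjusted p of this difference went up to 0.15 over its alternatives.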

How the results depend on the processing

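No median and no called value of a member named by rule reversed its direction under any alternative run. Other members were not checked for this. By total counts, 1 gene was called lower in the TAL1 line and its median was -0.082; the medians of the TAL1/LMO1 line and of its response against the LMO1 line were -0.54 and -0.43, and with DMSO the TAL1/LMO1 line had 5 genes higher and 20 lower than the LMO1 line. That scaling moved the median of all genes in the TAL1/LMO1 line from -0.01 to 0.09 and its calls from 4644 higher and 5168 lower to 5611 and 4277; the median of the 75 genes lay 0.62 below it either way. DESeq2 called 1 gene lower in the TAL1 line (MRPL3), 1 in the LMO1 line, 0 in the difference of both responses, and with DMSO 1 lower for TAL1 against LMO1 and 0 higher for TAL1/LMO1 against LMO1; with no filter on low counts that last count was 0. The cause was not tested.

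Leaving out 1 replicate gave 1 gene lower in the TAL1 line each time (MRPL12) with medians from -0.13 to -0.10, 1 to 2 lower in the LMO1 line, and 62 to 63 lower in the TAL1/LMO1 line. It gave 2 to 4 higher in the response of TAL1/LMO1 against TAL1 and 0 to 1 lower in that of TAL1 against LMO1. With DMSO, it gave 1 to 4 lower for TAL1 against LMO1 with medians from 0.13 to 0.17, and 0 to 1 higher and 20 to 29 lower for TAL1/LMO1 against LMO1.

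Deviations of same-numbered libraries correlated between -0.015 and 0.055 over 15 pairs of groups. Such values show no strong pairing by replicate number, but with 2 libraries per group they cannot exclude one. With the replicate block, 5, 3 and 64 genes were lower in the TAL1, LMO1 and TAL1/LMO1 lines, and with DMSO 2 were higher for TAL1/LMO1 against LMO1. Over all genes, the block gave 190 higher and 168 lower in the TAL1 line, against 160 and 139 without it. In the LMO1 line it gave 226 and 184, against 192 and 157. Without the members with the largest same-strand exon shares (MRPL12, MRPL53, MRPL38, MRPS28, MRPS17, MRPS24 and MRPL33), 59 of 68 were lower in the TAL1/LMO1 line. Members with smaller shares, such as MRPS6, were kept in that count.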
